A study of Mus musculus with 22 samples.

Results

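The genes described here are 10 regulators of cell cycle entry and growth arrest in mouse TH2 cells: 3 cyclin-dependent kinase inhibitors (Cdkn1a, Cdkn1b and Cdkn2c), the 3 GADD45 genes (Gadd45a, Gadd45b and Gadd45g), p53 (Trp53) with its ubiquitin ligase Mdm2, and the D cyclins Ccnd2 and Ccnd3. They were chosen by symbol, and all 10 were found once each among the 49671 genes of the deposited count table. The cells were wild-type BALB/c T helper cells polarized in culture toward the type 2 cytokine programme and harvested on day 5. Calcitriol, the active form of vitamin D, was added at 100 nM for the last 24 hours in 11 libraries, and 11 vehicle libraries received 2% ethanol. The mice, male and female and 6 to 8 weeks old when obtained, were bred on diets with 400, 1000 or 4000 IU of vitamin D3 per kg. The labels do not tie a library to a mouse, sex, diet or culture, and they do not say whether the calcitriol cultures also held ethanol, so p-values measure the spread between libraries, which may in part be technical.

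D cyclins bind CDK4 and CDK6 and start the phosphorylation of the retinoblastoma protein that lets a cell leave G1. The proteins encoded by Cdkn1a (p21) and Cdkn1b (p27) hold back cyclin-CDK complexes, and the product of Cdkn2c (p18) binds CDK4 and CDK6 themselves. p53 induces Cdkn1a, Gadd45a and Mdm2 after DNA damage, and MDM2 in turn marks p53 for degradation. GADD45 proteins are small stress-induced partners of the kinase MAP3K4, and in T cells Gadd45b and Gadd45g are known as activators of p38 and JNK signalling.

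Libraries held between 3214171 and 12431051 counts with calcitriol and between 3618784 and 20258430 with vehicle, and 11905 genes passed the filter on low counts. T cell markers summed to 2743 to 3263 CPM (counts scaled to a common library total with TMM factors) with calcitriol and 2466 to 3179 CPM with vehicle, and TH2 markers to 372 to 701 CPM with calcitriol and 405 to 765 CPM with vehicle, with Il1rl1 under 1 CPM on average in both groups. Within these sums, Cd3d, Cd3e, Cd3g and Cd28 were higher with calcitriol and Cd4 and Cd5 lower (edgeR, adjusted p of at most 0.0353). Il13 averaged 203 CPM with calcitriol and 333 with vehicle (edgeR, adjusted p = 0.0204). For Gata3, Il4 and Il5 the adjusted p was at least 0.0967. The CD8 markers Cd8a and Cd8b1 summed to 2.52 to 9.53 CPM with calcitriol and 3.87 to 8.36 CPM with vehicle, nearly all of it Cd8b1 (means of 5.65 and 5.98 CPM). Markers of B, myeloid, dendritic, NK, basophil or mast and erythroid cells each summed to under 13 CPM in every library. Cd79a, Ms4a1, Pax5, Lyz2, Csf1r, Itgam, Flt3 and Cd8a averaged under 1 CPM in both groups, and Ncr1, Hba-a1 and Alas2 were at 0. Other markers of these lists were higher. Cd79b averaged 1.90 CPM with calcitriol and 2.21 with vehicle, Cd68 8.12 and 6.02, Itgax 3.34 and 3.38, and Zbtb46 2.59 and 4.68. Zbtb46 was lower with calcitriol (edgeR, adjusted p = 5.56e-05). Libraries of a group resembled one another in sets, 6 in each group, and replicates 1 and 2 of both groups stood apart on the second principal component, so calls that change without these 4 or with each set summed to 1 sample are marked beside the result. In bulk RNA, fewer cells that express a gene and less RNA per cell cannot be told apart.

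Calcitriol lowered both D cyclins, Gadd45b and Gadd45g, and lowered Cdkn1a and raised Gadd45a by smaller amounts. Of the 10 genes, 6 passed an adjusted p of 0.05 (edgeR quasi-likelihood test), 5 lower and 1 higher, where 31.5% of all tested genes passed, 15.5% lower and 16.1% higher. The groups did not overlap for Gadd45b, Ccnd2 and Ccnd3, all lower with calcitriol, where this held for 1.59% of all tested genes in that direction, 2.77% in the other and 4.36% in either. Trp53, Mdm2, Cdkn1b and Cdkn2c were not called. With library totals in place of TMM factors, 31.4% of all called genes were higher, against 50.9% with TMM, and the same 5 of these genes were lower while Gadd45a lost its call.

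**Figure D1:**
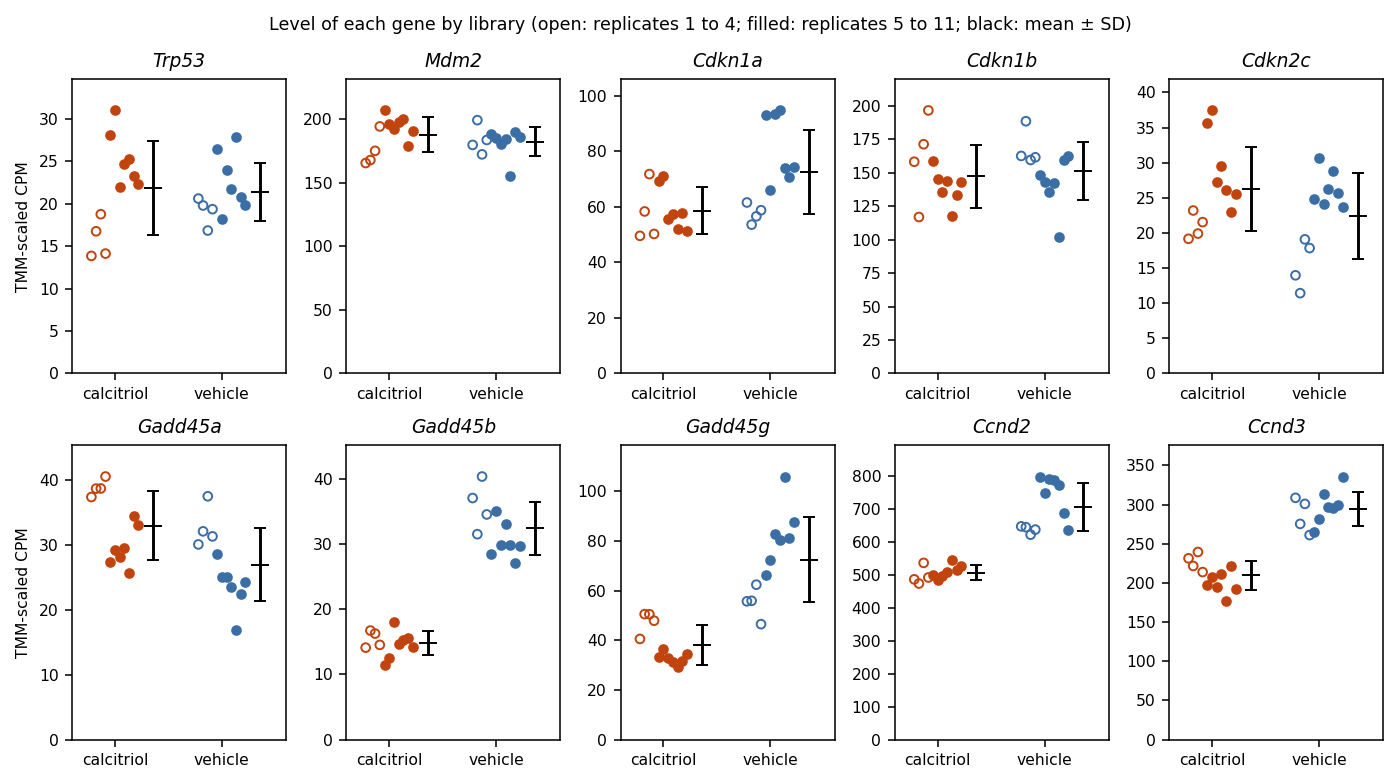
TMM-scaled CPM of each gene, 1 point per library, with 11 calcitriol libraries on the left and 11 vehicle libraries on the right of each panel; open points are replicates 1 to 4 and black bars give the mean ± SD. The points of the groups are fully apart for Gadd45b, Ccnd2 and Ccnd3.

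Both D cyclins fell to about the same fraction of the vehicle level. Ccnd2 (ENSMUSG00000000184, GRCm38 chromosome 6, 127125162 to 127152193) was the most abundant of the 10 genes, at 474 to 545 CPM with a median of 501 in calcitriol libraries and 622 to 798 CPM with a median of 687 in vehicle libraries. Every calcitriol library lay below every vehicle library. The log2 change was -0.48 ± 0.05 (SE; adjusted p = 1.51e-08), or 71.6% of vehicle. Ccnd3 (ENSMUSG00000034165, chromosome 17, 47505051 to 47599691) ran from 176 to 239 CPM with a median of 212 in calcitriol libraries and from 261 to 336 CPM with a median of 297 in vehicle libraries. Its log2 change was -0.49 ± 0.05 (adjusted p = 2.50e-08), or 71.2% of vehicle, again with no overlap. The spread between libraries was narrower for Ccnd2 with calcitriol, with a coefficient of variation of 4.51%, against 10.2% with vehicle.

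The proportion of the D cyclins to each other was close in both groups. Per kilobase of merged exon, Ccnd2 was 2.27 ± 0.27 times as abundant as Ccnd3 in calcitriol libraries and 2.25 ± 0.30 times in vehicle libraries (SD, n = 11 each), and the ratio overlapped between the groups, with highest values of 2.88 and 2.81. The 2 genes together reached 77.6 ± 2.7 CPM per kilobase with calcitriol and 109 ± 7.76 with vehicle (SD, n = 11 each), and these sums did not overlap. Ccnd1, the D cyclin of many other cell types, had 4 counts over all calcitriol libraries and 11 over all vehicle libraries, below the filter. An exon of the ribosome assembly gene Bysl overlaps Ccnd3 by 361 bases on the opposite strand, and the strand setting of the counting is not given; Bysl held 10.2% as many counts as Ccnd3, with a log2 change of -0.23 ± 0.15 (adjusted p = 0.251). The overlap of Ccnd2 with 9330179D12Rik involves a gene with 0.210% as many counts.

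Among the CDK inhibitors, Cdkn1a fell and the others were not called. Cdkn1a (ENSMUSG00000023067, chromosome 17, 29090976 to 29100727) had 49.5 to 71.7 CPM with a median of 57.5 in calcitriol libraries and 53.6 to 94.7 CPM with a median of 70.9 in vehicle libraries. The groups overlapped, with 9 of 11 calcitriol libraries below the vehicle median and 4 below every vehicle library. The log2 change was -0.31 ± 0.10 (adjusted p = 0.0209), or 80.8% of vehicle. This call was lost with sets of libraries summed (-0.32, adjusted p = 0.0658) and with no filter on low counts (-0.30, adjusted p = 0.0599).

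Cdkn1b (ENSMUSG00000003031, chromosome 6, 134920401 to 134925513) had the highest mean CPM of the 3 CDK inhibitors, not scaled by length. It ran from 117 to 197 CPM with a median of 144 in calcitriol libraries and from 102 to 188 CPM with a median of 160 in vehicle libraries. The log2 change was -0.04 ± 0.09 (adjusted p = 0.781), with a 95% interval of -0.21 to 0.13. Cdkn2c (ENSMUSG00000028551, chromosome 4, 109660876 to 109667189) had 19.2 to 37.4 CPM with a median of 25.5 in calcitriol libraries and 11.4 to 30.7 CPM with a median of 24.1 in vehicle libraries. Its log2 change of 0.23 ± 0.15 (adjusted p = 0.259; interval -0.06 to 0.51) passed the threshold when surrogate variables were added to the fit (0.21, adjusted p = 0.0126). Per kilobase, Cdkn1b was 2.00 ± 0.44 times as abundant as Cdkn1a with calcitriol and 1.72 ± 0.54 times with vehicle (SD, n = 11 each), and these ranges overlapped. With the length of the longest transcript in place of merged exons, these ratios were 1.17 and 1.01. By that length the mean vehicle level of Cdkn1a, 34.8 CPM per kilobase, was above the 33.3 of Cdkn1b.

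Neither p53 nor its ligase was called. Trp53 (ENSMUSG00000059552, chromosome 11, 69580359 to 69591873) had 13.9 to 31.0 CPM with a median of 22.3 in calcitriol libraries and 16.8 to 27.8 CPM with a median of 20.6 in vehicle libraries, and its log2 change was 0.05 ± 0.12 (adjusted p = 0.807; interval -0.19 to 0.28). Mdm2 (ENSMUSG00000020184, chromosome 10, 117688875 to 117710758) had 166 to 207 CPM with a median of 192 in calcitriol libraries and 156 to 199 CPM with a median of 185 in vehicle libraries. Its log2 change was 0.04 ± 0.05 (adjusted p = 0.519), and the interval of -0.05 to 0.14 is the narrowest of the 10 genes. Per kilobase, Mdm2 was 7.21 ± 1.71 times as abundant as Trp53 with calcitriol and 6.94 ± 1.16 times with vehicle (SD, n = 11 each). The vehicle level of Trp53 per kilobase was above that of 44.6% of tested genes and that of Mdm2 above that of 88.1%.

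The GADD45 genes moved in different directions. Gadd45b (ENSMUSG00000015312, chromosome 10, 80930073 to 80932204) had 11.5 to 18.1 CPM with a median of 14.7 in calcitriol libraries and 27.1 to 40.4 CPM with a median of 31.6 in vehicle libraries. All calcitriol libraries lay below all vehicle libraries, and the log2 change of -1.13 ± 0.08 (adjusted p = 8.70e-12), or 45.8% of vehicle, was the largest of the 10 genes. Gadd45g (ENSMUSG00000021453, chromosome 13, 51846678 to 51848468) had 29.1 to 50.6 CPM with a median of 34.7 in calcitriol libraries and 46.5 to 106 CPM with a median of 72.3 in vehicle libraries. All 11 calcitriol libraries were below the vehicle median and 8 were below every vehicle library. The log2 change was -0.95 ± 0.13 (adjusted p = 2.98e-06), or 51.6% of vehicle.

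Gadd45a (ENSMUSG00000036390, chromosome 6, 67035096 to 67037457), the p53-responsive gene of the family, was higher with calcitriol. It had 25.7 to 40.5 CPM with a median of 33.1 in calcitriol libraries and 16.8 to 37.5 CPM with a median of 25.1 in vehicle libraries, with all 11 calcitriol libraries above the vehicle median and 3 above every vehicle library. The log2 change of 0.29 ± 0.11 (adjusted p = 0.0404) was close to the threshold. The call was lost with sets summed (0.31, adjusted p = 0.186), with library totals (0.22, adjusted p = 0.0840), without the 4 libraries that stood apart (0.29, adjusted p = 0.0681), and without any single one of calcitriol replicates 1, 2, 3, 4, 10 and 11 or vehicle replicates 6 to 11 (adjusted p of up to 0.0744). The antisense gene E230016M11Rik overlaps Gadd45a exons by 337 bases and held 6.61% as many counts, with a log2 change of 0.45 ± 0.19 (adjusted p = 0.0775).

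The make-up of the family differed between the groups. Summed per kilobase of merged exon, the GADD45 genes reached 60.5 ± 9.91 CPM per kilobase with calcitriol and 97.5 ± 11.1 with vehicle (SD, n = 11 each), with ranges of 49.0 to 75.6 and 79.2 to 119. Gadd45a made up 30.9 ± 1.89% of this sum in calcitriol libraries and 16.1 ± 4.60% in vehicle libraries, with no overlap (28.9% to 34.6% and 8.02% to 22.4%). A share depends on the level of every gene in the sum, and the level of Gadd45a itself overlapped between the groups. The share of Gadd45b was 15.7 ± 2.68% with calcitriol and 21.3 ± 4.04% with vehicle. Gadd45g held the largest share in both, at 53.3 ± 3.20% with calcitriol and 62.6 ± 8.38% with vehicle. This order of the groups differed by library number, in a division made after the values were seen, and the difference was not tested. The Gadd45g share was 53.5% to 57.2% with calcitriol and 50.1% to 55.6% with vehicle in replicates 1 to 4, and 47.9% to 56.0% with calcitriol and 62.3% to 76.1% with vehicle in replicates 5 to 11.

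**Figure D2:**
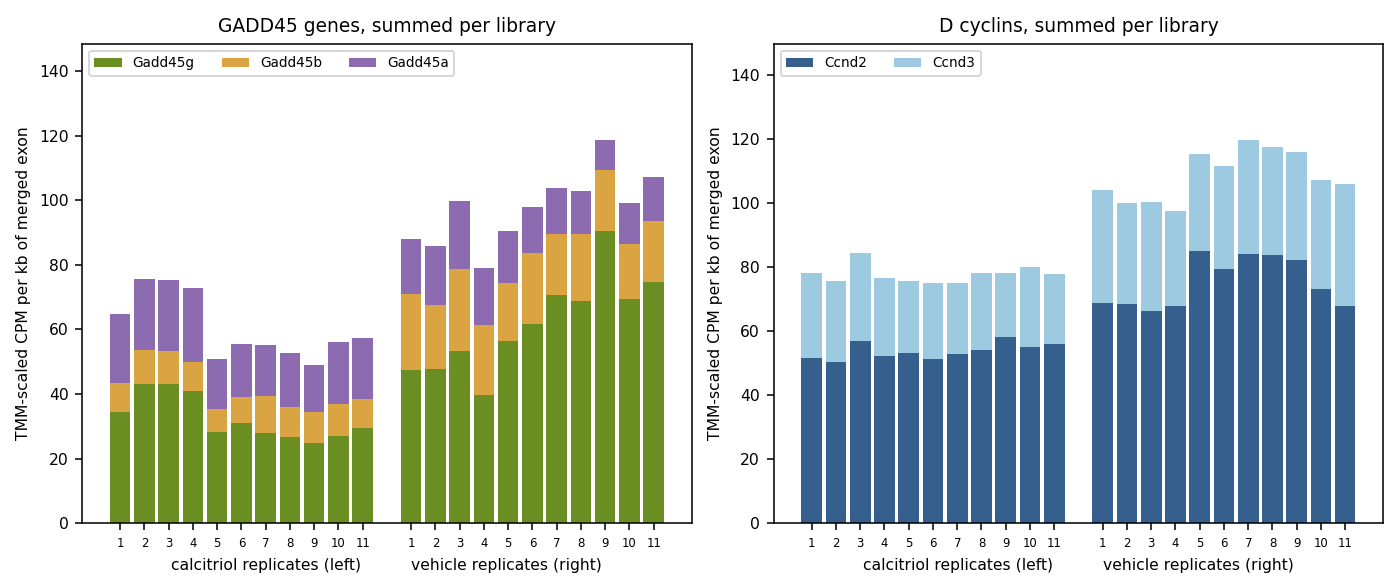
Stacked TMM-scaled CPM per kilobase of merged exon in each library, calcitriol replicates on the left and vehicle replicates on the right, for the GADD45 genes (left panel) and the D cyclins (right panel). Every calcitriol column is shorter than every vehicle column in both panels, and the Gadd45a segment makes up 28.9% to 34.6% of the calcitriol columns and 8.02% to 22.4% of the vehicle columns.

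Because the GADD45 genes moved in different directions, the 250 bases before their start sites are shown, 5′ to 3′ on the strand of the gene, from RefSeq on GRCm38.p6. Capitals mark matches on either strand to the CCAAT box, the TATA box (letters TATAAA), the E-box with letters CACGTG or the p53 half-site.
Gadd45b, chr10:80929841-80930090, plus strand: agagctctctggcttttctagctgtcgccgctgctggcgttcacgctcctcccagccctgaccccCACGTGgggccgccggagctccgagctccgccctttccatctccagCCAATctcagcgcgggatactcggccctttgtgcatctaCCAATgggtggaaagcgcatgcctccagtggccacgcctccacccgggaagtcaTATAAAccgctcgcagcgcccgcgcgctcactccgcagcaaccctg
Gadd45g, chr13:51846425-51846674, plus strand: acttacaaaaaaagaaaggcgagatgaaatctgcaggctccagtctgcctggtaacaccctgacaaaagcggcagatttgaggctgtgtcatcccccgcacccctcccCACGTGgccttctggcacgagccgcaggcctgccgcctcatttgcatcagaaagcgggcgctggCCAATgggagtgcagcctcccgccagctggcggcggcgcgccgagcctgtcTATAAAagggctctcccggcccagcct
Gadd45a, chr6:67037408-67037657, minus strand: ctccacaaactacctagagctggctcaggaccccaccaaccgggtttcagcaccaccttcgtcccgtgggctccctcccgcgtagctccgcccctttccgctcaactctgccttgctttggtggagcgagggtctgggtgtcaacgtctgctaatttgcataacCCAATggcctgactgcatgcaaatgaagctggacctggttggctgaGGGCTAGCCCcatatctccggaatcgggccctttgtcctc

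The windows of Gadd45b and Gadd45g, the genes that fell, each held a TATAAA match, 46 and 27 bases before the start, and a CACGTG match, 185 and 142 bases before it. That of Gadd45a held neither, and had a p53 half-site match 40 bases before the start. These distances are to RefSeq starts, which differ from the GENCODE coordinates given above for the genes. Gadd45a begins at 67037457 in GENCODE, inside its window, so its half-site match lies within the GENCODE gene. The GENCODE start of Gadd45b, 80930073, also lies inside its window. CCAAT occurred in all 3. Of 32851 RefSeq windows of this length, 12.4% held the TATA box, 6.02% that E-box, 33.8% the CCAAT box and 7.13% a p53 half-site. Over the 9 genes with a window (Ccnd2 had no entry in the table used), a p53 half-site was found for Trp53, Mdm2, Cdkn1a and Gadd45a, the GC box GGGCGG for 7 (32.7% of windows) and the forkhead motif GTAAACA for Mdm2 and Ccnd3 (3.17%). Cdkn1a, Cdkn2c and Ccnd3 had 2 windows each, and a match in either was counted for the gene. The percentages are per window, so they are not on the same footing as these gene counts. TATAAA was found for Gadd45b, Gadd45g and Trp53, which was not called and had its match 248 bases before the start. CACGTG was found for Gadd45b and Gadd45g only. Cdkn1a and Ccnd3, which also fell, held neither. The CRE (letters TGACGTCA), the AP-1 site (letters TGANTCA), the NF-kB site and the vitamin D response element of the DR3 type had no match in these windows, and 1.55%, 6.75%, 7.25% and 0.0396% of all windows held them.

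The changes of several genes differed in size with the library number in the titles. The 8 lowest-numbered libraries are replicates 1 to 4 of each group, and the other 14 are replicates 5 to 11; this division was chosen after the values were seen, the labels do not call it a batch, and the difference between the divisions was not tested. Gadd45g had 40.6 to 50.6 CPM in calcitriol and 46.5 to 62.4 CPM in vehicle libraries among replicates 1 to 4, a change of -0.22 ± 0.11 (edgeR, adjusted p = 0.189). Among replicates 5 to 11 it had 29.1 to 36.4 CPM in calcitriol and 66.2 to 106 CPM in vehicle libraries, with no overlap and a change of -1.34 ± 0.08 (adjusted p = 3.59e-11). Cdkn1a changed by -0.01 ± 0.11 (adjusted p = 0.983) in replicates 1 to 4 and by -0.45 ± 0.09 (adjusted p = 0.00112) in replicates 5 to 11. Its vehicle values were 53.6 to 61.5 CPM in the first division and 66.2 to 94.7 CPM in the second.

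Gadd45b and the D cyclins were called in both divisions. Gadd45b changed by -1.23 ± 0.12 and -1.05 ± 0.09, Ccnd2 by -0.36 ± 0.07 and -0.54 ± 0.05, and Ccnd3 by -0.34 ± 0.08 and -0.58 ± 0.06, in replicates 1 to 4 and replicates 5 to 11 in that order (adjusted p of at most 0.00450). Gadd45a changed by 0.25 ± 0.10 (adjusted p = 0.122) and 0.34 ± 0.09 (adjusted p = 0.00817), and was higher in the first division in both groups. Trp53 had 13.9 to 18.8 CPM in calcitriol and 16.8 to 20.6 CPM in vehicle libraries of replicates 1 to 4, and 21.98 to 31.0 CPM in calcitriol and 18.1 to 27.8 CPM in vehicle libraries of replicates 5 to 11, with changes of -0.28 ± 0.14 (adjusted p = 0.216) and 0.16 ± 0.10 (adjusted p = 0.234).

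**Figure D3:**
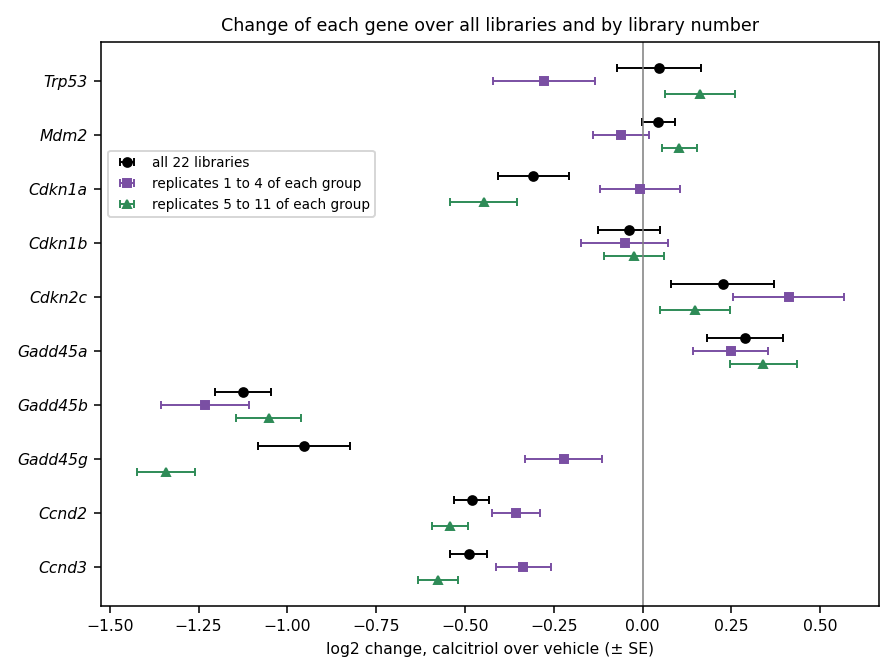
Log2 change of calcitriol over vehicle (edgeR, ± SE) for each gene in all 22 libraries, in replicates 1 to 4 and in replicates 5 to 11 of each group. Gadd45g lies at -0.22 in replicates 1 to 4 and at -1.34 in replicates 5 to 11, while Gadd45b lies at -1.23 and -1.05.

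Ordered by vehicle level per kilobase, Ccnd2 came first at 75.1, then Gadd45g (61.8), Mdm2 (35.9), Ccnd3 (33.5), Cdkn1b (33.3), Gadd45b (20.4), Cdkn1a (20.4), Gadd45a (15.3), Cdkn2c (8.34) and Trp53 (5.29 CPM per kilobase). Neighbours in this order overlapped in their ranges over libraries except Gadd45g and Mdm2. With calcitriol the order was Ccnd2 (53.8), Mdm2 (36.9), Gadd45g (32.4), Cdkn1b (32.4), Ccnd3 (23.9), Gadd45a (18.7), Cdkn1a (16.5), Cdkn2c (9.76), Gadd45b (9.36) and Trp53 (5.40). Here the neighbours that did not overlap were Ccnd2 with Mdm2 and Cdkn1a with Cdkn2c. Gadd45g ranked 3 with calcitriol and 2 with vehicle, and Gadd45b ranked 9 with calcitriol and 6 with vehicle. These orders depend on the gene lengths used.

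In the surrounding pathways, 7 lists with 112 other genes, of which 106 were tested, 23 genes rose and 12 fell, or 33.0% of those tested, close to the 31.5% of all tested genes. The counts were 14 and 6 with sets of libraries summed, where 2357 of all 13161 tested genes were called. With library totals they were 15 and 15, where 31.4% of all called genes were higher. The lists were chosen with earlier results of these data known, and the 4 genes of each list with the smallest p are named, with others marked as named after their values were seen.

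The pocket proteins related to RB rose. Rbl2, which encodes p130 and holds E2F targets silent in resting cells, had 469 ± 24.4 CPM with calcitriol and 325 ± 36.1 CPM with vehicle (SD, n = 11 each), with no overlap; the change was 0.53 ± 0.05 (edgeR, adjusted p = 1.07e-08). Rbl1, which encodes p107, rose by 0.33 ± 0.08 (adjusted p = 0.00233). No other gene of the 13 in the RB and E2F list was called, and E2f5 and Tfdp2 were at -0.19 and -0.07. E2f5 was called lower without the 4 libraries apart (-0.32, adjusted p = 0.0207) and without calcitriol replicate 1 (-0.28, adjusted p = 0.0356). Over the 13 the median change was -0.07 on the log2 scale, beside -0.01 over all tested genes. The called genes made up 15.4% of the list, where 31.5% of all tested genes were called.

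Most cyclins and CDKs were not called, 1 of 15 tested genes being higher and 1 lower, with a median of -0.04. The called genes made up 13.3% of those tested, where 31.5% of all tested genes were called. Cdc25a, the phosphatase that activates CDK2, fell by 0.33 ± 0.09 on the log2 scale (adjusted p = 0.00619), and this call was lost with sets summed (adjusted p = 0.106). Cdc25b rose by 0.24 ± 0.09 (adjusted p = 0.0329); the call was lost with sets summed (0.24, adjusted p = 0.0821), with library totals and without calcitriol replicate 3, 5 or 6 or vehicle replicate 2. Ccnb1 was at -0.13 ± 0.07 and Cdk6, a partner of the D cyclins, at 0.06 ± 0.04 (adjusted p = 0.178 and 0.340). Of the other CDK inhibitors only Cdkn2d and Cdkn3 were tested. Cdkn2d, which encodes p19, rose by 0.15 ± 0.05 (adjusted p = 0.0292), a call lost with sets summed (0.14, adjusted p = 0.225), with library totals, with no filter, without the 4 libraries apart (0.11, adjusted p = 0.164), and without calcitriol replicate 10 or vehicle replicate 5. Cdkn3 was at 0.03 ± 0.12. Cdkn1c, Cdkn2a and Cdkn2b stayed below the filter, with 71 to 103 counts summed over the libraries of a group.

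**Figure D4:**
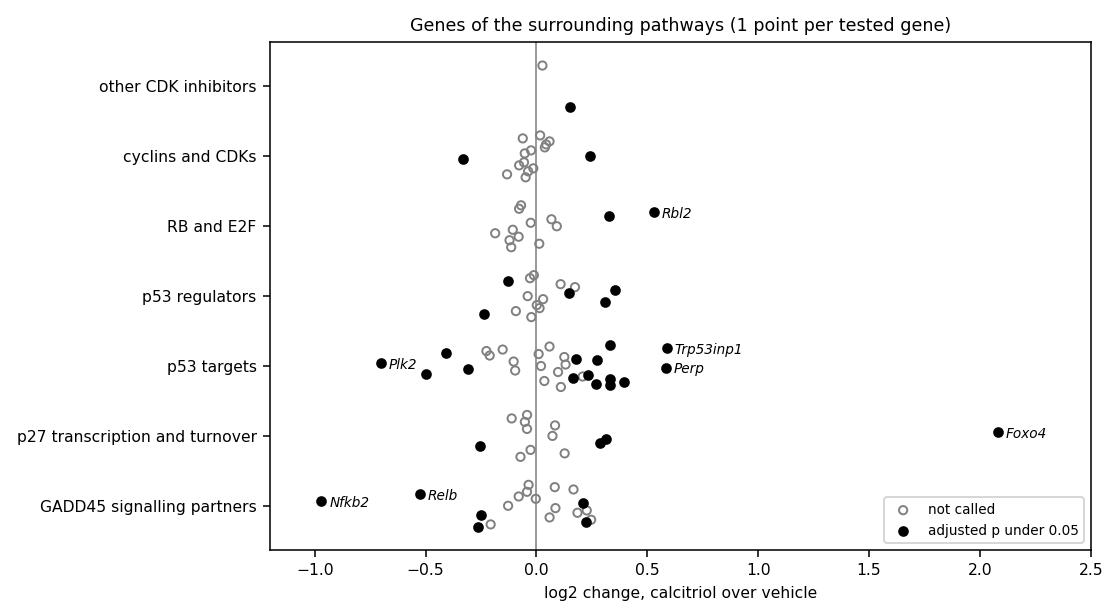
Log2 change of calcitriol over vehicle for each tested gene of the 7 surrounding lists, 1 point per gene, filled where the adjusted p was under 0.05; genes beyond 0.5 in either direction are labelled. Foxo4 lies farthest to the right at 2.08 and Nfkb2 farthest to the left at -0.97.

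Of 29 p53 targets, 11 rose and 4 fell, or 51.7% called, where 31.5% of all tested genes were called, 16.1% higher and 15.5% lower. Their median log2 change was 0.11, beside -0.01 over all tested genes. Trp53inp1, a p53-induced nuclear protein, rose to 461 ± 62.4 CPM with calcitriol, against 307 ± 36.4 CPM with vehicle (SD, n = 11 each; log2 change 0.59 ± 0.08, edgeR adjusted p = 7.23e-07). The polo-like kinase Plk2 fell to 133 ± 31.6 CPM, against 215 ± 38.7 CPM with vehicle (-0.70 ± 0.12, adjusted p = 7.28e-05). Sesn2, a stress-induced inhibitor of mTORC1 signalling, and the death receptor Fas changed by -0.41 ± 0.07 and -0.31 ± 0.05. Named after their values were seen, the death effectors Bax, Pmaip1 and Apaf1 rose by 0.40, 0.28 and 0.27, while Bbc3 was not called. Also named after their values were seen, Perp rose by 0.58 and Eda2r changed by -0.50 (edgeR, adjusted p = 0.0269). Tnfrsf10b, Aen and Pidd1 were not called. Whether the calls of these genes held in the other fits is not given. The split was 7 higher and 5 lower with library totals, where 31.4% of all called genes were higher, and 7 and 3 with sets summed.

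Of 15 tested regulators of p53, 3 rose and 2 fell, or 33.3% called, where 31.5% of all tested genes were called. The kinases Prkdc and Hipk2, which phosphorylate p53, rose by 0.35 ± 0.08 and 0.31 ± 0.07 (edgeR, adjusted p = 0.00170 and 0.00120). Other kinases of the list, named after their values were seen, did not rise. Atr changed by -0.24 ± 0.09 (edgeR, adjusted p = 0.0475), and Atm, Chek1 and Chek2 were not called. The Atr value was close to the threshold, and whether its call held in the other fits is not given. The phosphatase gene Ppm1d, itself a p53 target, rose by 0.15 ± 0.06 (adjusted p = 0.0471), a call lost with sets summed (0.14, adjusted p = 0.174), with library totals, with no filter, with the library total as a covariate and without any of 15 single libraries. Trp53bp1 changed by -0.13 ± 0.04 (adjusted p = 0.0219) and lost its call with sets summed (-0.12, adjusted p = 0.156), with no filter and without the 4 libraries apart (adjusted p = 0.0618). Trp63 had no count in any library, and Trp73 had 5 counts with calcitriol and 7 with vehicle.

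Factors that act on Cdkn1b showed the largest single change in these lists. Foxo4, a forkhead factor of the family that activates Cdkn1b transcription, rose to 134 ± 8.91 CPM with calcitriol, against 31.6 ± 3.78 CPM with vehicle (SD, n = 11 each), with no overlap (log2 change 2.08 ± 0.06, edgeR adjusted p = 5.48e-20). Foxo1 rose by 0.31 ± 0.07 and Fbxw7, the ubiquitin ligase subunit that recognises cyclin E, by 0.29 ± 0.05. Ddb1, a scaffold of cullin 4 ligases, changed by -0.26 ± 0.09 (adjusted p = 0.0256), a call lost with sets summed (-0.25, adjusted p = 0.140), with no filter and without vehicle replicate 1 or 3. The remaining 9 of 13 genes, the p27 ligase subunit Skp2 among them, were not called, and the median was -0.03. The called genes made up 30.8% of the list, where 31.5% of all tested genes were called.

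Among signalling partners of the GADD45 proteins and the NF-kB subunits that regulate Gadd45b, 2 of 19 rose and 4 fell, with a median of 0.00. This was 31.6% called, where 31.5% of all tested genes were called. Nfkb2 fell to 136 ± 11.2 CPM with calcitriol, against 266 ± 26.1 CPM with vehicle (SD, n = 11 each), with no overlap (-0.97 ± 0.06, edgeR adjusted p = 2.97e-13). Relb, its partner in the non-canonical pathway, changed by -0.53 ± 0.07 (adjusted p = 1.60e-06), whereas Nfkb1 rose by 0.21 ± 0.06 (adjusted p = 0.00558), a call lost with sets summed (adjusted p = 0.0758). Gadd45gip1, whose product binds GADD45 proteins, changed by -0.26 ± 0.06 (adjusted p = 0.00160). Named after their values were seen, Map3k4, the kinase that GADD45 proteins bind, was at -0.25 ± 0.10 (adjusted p = 0.0462). The kinase gene Map2k4 went the other way, at 0.22 ± 0.08 (adjusted p = 0.0286). The Map3k4 value was close to the threshold, and whether either call held in the other fits is not given.

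To find genes with the most similar pattern, log2 CPM was standardised over the 22 libraries and the root mean square difference to each called gene was taken, where the median over all tested genes lay between 1.36 and 1.39. All of these libraries share the treatment, so genes with a clear treatment difference come close to each other. Nearest to Gadd45b were Penk (0.215), which encodes proenkephalin, and Oaf (0.269). Nearest to Gadd45g were Lta (0.370), which encodes lymphotoxin alpha, and Fam198a (0.380). For Ccnd2 these were Eif4enif1 (0.274) and Slco3a1 (0.277), and for Ccnd3 Plod3 (0.347) and Fam71b (0.359). Cdkn1a was nearest to Uba1 (0.463) and Gtpbp1 (0.529), and Gadd45a to the chemokine receptor Ccr4 (0.395) and Exoc2 (0.419), all 4 at greater distances than those of Gadd45b. Among the 10 genes themselves, Gadd45g and Ccnd3 were the closest pair, at 0.439.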

How the data were processed

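The authors deposited raw counts per Ensembl gene for the 22 libraries, whose column names are the sample titles. The submitters' processing notes name STAR 2.7.10a, HTSeq 0.13.5 and the build GRCm38; the annotation release and strand setting were not given. Per the labels' protocols, TruSeq stranded libraries were made from total RNA with a Globin kit. Symbols, coordinates and merged exon lengths came from GENCODE M21, also GRCm38, which left 345 identifiers unnamed.

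Counts were filtered with filterByExpr, scaled with TMM factors and tested with edgeR 4.0.16 (R 4.3.3; quasi-likelihood F test, robust, no covariate) over all 11905 genes, which held at least 99.7% of the counts of each library, calling genes at a Benjamini-Hochberg adjusted p under 0.05. Changes are log2 of calcitriol over vehicle, ± SE. Alternatives used DESeq2 1.42.0, limma-voom (limma 3.58.1), surrogate variables (sva 3.50.0), other scaling and filters, and fewer or summed libraries. A chi-square comparison of 110 replicate pairs gave 2.52 to 26.8 per degree of freedom, so none was merged as a repeat. Named genes were all 10 chosen genes, the 4 with the smallest p per list, and the 2 nearest in pattern to each called gene. The genes, lists and first alternatives were chosen with earlier results of these data known.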

Additional observations from a re-analysis of the deposited data

How the results depend on the processing

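No paired analysis was run, because the labels give no replicate numbers and name no shared culture, animal or batch. In the order of library numbers, blocks of vehicle and calcitriol libraries alternate, and no fit with these blocks was run. Sets of libraries came from the data and joined the same replicate numbers in both groups, but were not matched between groups. Over 34 other fits, excluding the division by library number, Gadd45b, Gadd45g, Ccnd2 and Ccnd3 kept their direction and their call, with log2 changes of -1.19 to -1.09, -1.08 to -0.89, -0.55 to -0.46 and -0.56 to -0.47. Of all tested genes 3755 were called, against 2357 with sets of libraries summed and 1842 in replicates 1 to 4 alone. In those replicates 3 of the 10 genes were called, where 15.5% of all tested genes were called, and 10 genes of the surrounding lists rose and 9 fell. With sets summed 14 genes of those lists rose and 6 fell, and with library totals 15 rose and 15 fell. Between 5 and 6 of the 10 were called with any single library left out.

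Signs turned only for genes that were not called. With library totals Trp53 was at -0.021, Mdm2 at -0.024, Cdkn3 at -0.039 and Cdk6 at -0.012. Cdkn3 was at -0.014 with surrogate variables and Cdkn1b at 0.031 without the 4 libraries apart. With single libraries left out, Trp53 ranged from -0.011 (without calcitriol replicate 6) to 0.099 and Cdkn3 from -0.0037 (without calcitriol replicate 10) to 0.090. In replicates 1 to 4, Trp53 was at -0.28, Mdm2 at -0.060, Cdkn3 at -0.31 and E2f5 at 0.011. The cause was not tested.

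With the longest transcript as gene length, Ccnd2 exceeded Ccnd3 by 1.48 times with calcitriol and 1.47 times with vehicle, and Gadd45g made up 47.7% of the GADD45 sum with calcitriol. Standardised within groups, the gene nearest to Gadd45b was Ufm1 and that nearest to Gadd45g Batf3, while Ccr4 stayed nearest to Gadd45a. The nearest genes also changed for Cdkn1a (to Rai1), Ccnd2 (to Mycbp2) and Ccnd3 (to Adamtsl5). Adamtsl5 was higher with calcitriol (log2 change 0.49, edgeR adjusted p = 0.0304), while Ccnd3 was lower. Gadd45b had 52 to 190 counts per calcitriol library, and intervals cover the spread between libraries.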
